A study of Mus musculus with 6 samples.

Results

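Rows for actin binding and sarcomere genes were taken from a table of raw read counts of mouse colon RNA, in which 2033 gene rows are listed. A row was a member when its deposited annotation held the gene ontology term for actin binding, for actin filament binding or for the Z disc, or when its symbol began with Myh, Myl, Actn, Tnn, Tpm or Eno3. Rows annotated to the neuronal cell body were left out. The rule gave 35 of the 2033 rows: 31 by a term and 4 by the symbol alone (Myh2, Tnni1, Tnnt2 and Eno3, which carry none of the 3 terms). The name of the set covers the data only in part. By known function, 5 members are sarcomere proteins. A further 7, grouped as membrane proteins and enzymes, carry an actin or Z disc term. The cytoskeleton-associated protein Arc was placed among these 7. Another 2 are non-coding rows that carry the term of a protein to which their sequence was matched.

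The samples were colon tissue of control mice and of mice exposed over a long term to PFOA (perfluorooctanoic acid, a fluorinated surfactant that persists in the body), with 3 libraries of each. The labels give no strain, sex, age, dose, duration or part of the colon. They mention 6 frozen mice in each group without tying a mouse to a library, so the spread between libraries may be technical. A difference in colon position and an effect of PFOA cannot be told apart. The listed rows summed to between 1771120 and 2269892 counts per library, and total sequencing depth is unknown. Car1, Car4 and Slc26a3, markers of colon epithelium, had counts in all 6 libraries, and the other 8 of the 11 epithelial markers had no row. These 3 did not move together: Car1 was 6.55-fold higher in PFOA, while Car4 was 2.55-fold and Slc26a3 4.80-fold lower, and their part in the values of members that epithelial cells express was not tested. CPM gives each count as its part of 1000000 listed counts of the library. Control replicate 1 and PFOA replicate 1 stood somewhat apart. For this comparison log2 CPM was taken over the rows kept for testing, on scaled library totals and with a small count added. The correlation was 0.951 to 0.972 between either of these libraries and the others of its group. It was 0.984 between control replicates 2 and 3 and 0.983 between PFOA replicates 2 and 3.

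The rows of this table appear to have been chosen for a difference between the same 2 groups, though the rule is not given. The values of the members are therefore a description and support no effect. The fitted log2 fold changes of tested rows began at 0.96 among those higher and at -1.03 among those lower in PFOA, with none between. The edgeR quasi-likelihood test took in 1608 of the 2033 rows after its filter on low counts. At an adjusted p of 0.05, 100% of these were called, 50% as higher and 50% as lower in PFOA. The test thus does not tell members from other rows, and no p-value of this contrast is given for them except where leaving out a library ended a call. Nothing follows for genes that have no row.

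Actin filaments are built from actin monomers and are cut, capped, bundled and anchored by actin binding proteins, which shape the brush border of enterocytes and carry the pull of myosin motors. In striated muscle, thin filaments of actin with troponin and tropomyosin slide past thick filaments of myosin, and the Z disc anchors the thin filaments. Smooth muscle, which forms the muscle coat of the colon, contracts without striated sarcomeres and uses calponin and other regulators.

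Of the 35 members, 30 were lower and 5 were higher in PFOA, while 49.1% of all listed rows were lower and 50.9% higher by the same scaled sums. Of these, 33 members were tested, 29 lower and 4 higher. The 2 members too low for the test were Slc4a1 and Gm15609. The median log2 fold change was -1.54 over the tested members and -0.03 over all tested rows, the latter a midpoint between the equal numbers of rows in each direction at which no row lies. Over protein-coding rows alone it was -1.52 for the 32 tested members and -1.06 for all 1050 tested rows. The latter lies at the edge of the range without rows, since 534 of the 1050 were lower and 516 higher. Among lower rows the median log2 fold change was -1.56 for the 29 members, nearer to 0 than the -1.80 of all 804. In size regardless of direction the members were close to the table: the median absolute log2 fold change was 1.60, against 1.76 over all tested rows. The CPM of the groups did not overlap in any of the 35 members, which was also so for 94.6% of all rows (48.8% as lower and 45.8% as higher in PFOA). Without control replicate 1, and likewise without PFOA replicate 1, edgeR called 29 members as lower and 4 as higher. The shares of all rows called in these fits are not given. All tested rows were called in the main fit, so these counts do not set the members apart. The 4 prefix members were all lower, as were all 10 rows with the actin filament binding term. The other 2 terms were mixed. Of 18 members with the actin binding term, 14 were lower and 4 higher. Of 11 with the Z disc term, 10 were lower and 1 higher. All members together took between 3.76% and 5.80% of the listed counts of a control library and between 2.11% and 2.93% of those of a PFOA library. In bulk tissue, fewer cells of a type and less RNA per cell cannot be told apart for any member.

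**Figure D1:**
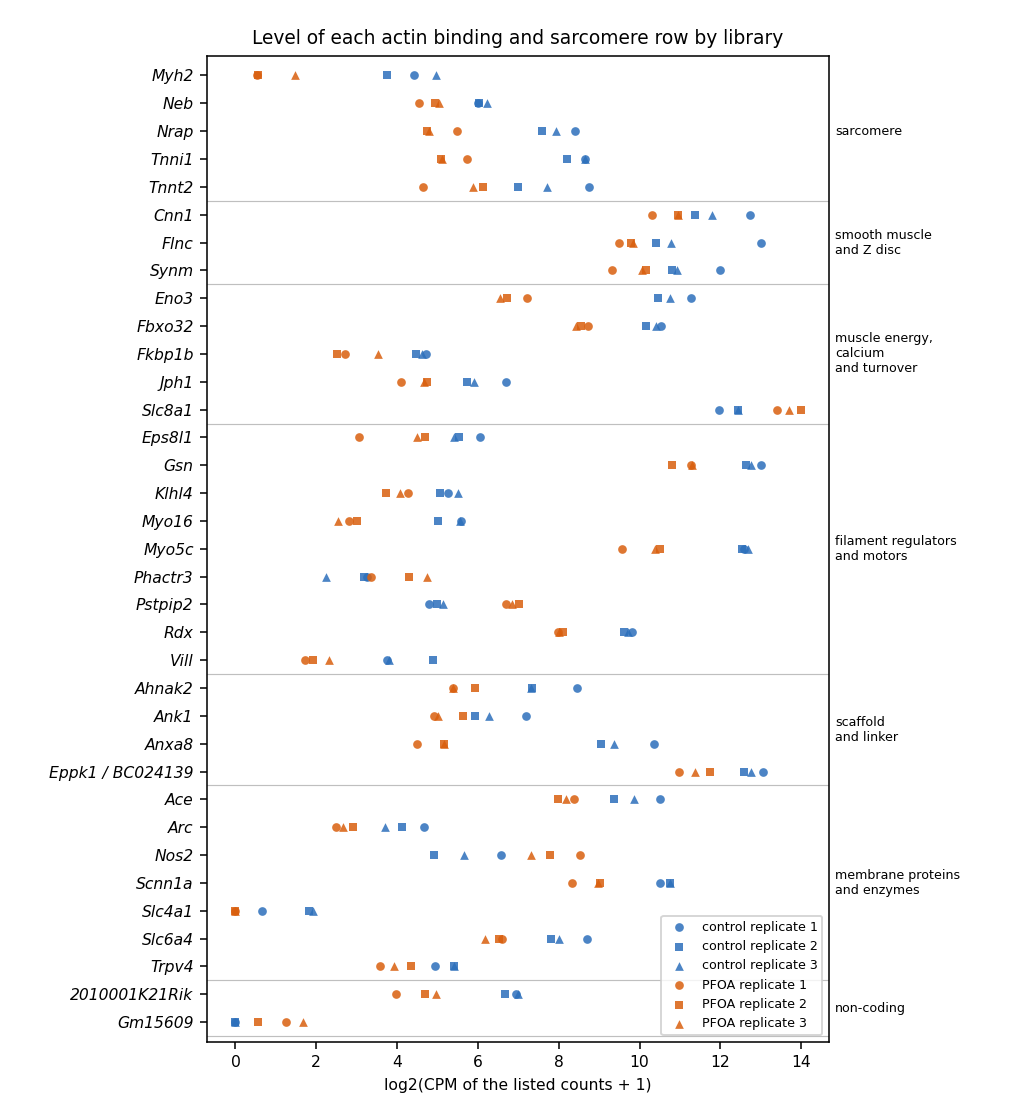
Level of the 35 members in each library as log2(CPM + 1), grouped by role. Blue symbols are the 3 control libraries and orange symbols the 3 PFOA libraries. In every row the blue and orange symbols lie apart, with orange to the left in 30 rows and to the right in Slc8a1, Phactr3, Pstpip2, Nos2 and Gm15609.

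All 5 sarcomere members were lower in PFOA. Tnni1, the slow skeletal form of troponin I, gave 707, 588 and 858 reads in control replicates 1 to 3 against 113, 70 and 76 in PFOA replicates 1 to 3, the order in which all reads are given. Every control library lay above every PFOA library, an 8.06-fold difference (-2.98 ± 0.32 on the log2 scale, SE, n = 3 each). Tnnt2, the cardiac form of troponin T, gave 761, 252 and 447 reads in control libraries against 52, 148 and 131 under PFOA. It was 4.28-fold lower (-2.13 ± 0.50 on the log2 scale, SE, n = 3 each), and its control values spread widely, with replicate 1 at 2.29 times the mean of the other 2. Tnni1 and Tnnt2 lie close together on chromosome 1 (mm10, plus strand). The Tnni1 row spans 135779434 to 135811991 and the Tnnt2 row 135836354 to 135852261, with 24.4 kb between them. They were the only pair of members within 100 kb of each other. The RefSeq start sites of Tnni1 lie inside its row, at 135799421 and 135799511. The row thus also covers sequence before these sites, whose part in the reads was not tested.

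Tnni1 and Tnnt2 are troponin genes close to each other that were both lower, and the smooth muscle gene Cnn1 is the counterpart described next. For that reason the stretches of 250 bases before their start sites are shown. They are RefSeq sequences of GRCm38.p6, 5′ to 3′, plus strand, at chr1:135799171-135799420, chr1:135836084-135836333 and chr9:22099003-22099252. Capitals mark the E-box CANNTG, a motif bound by myogenic and many other basic helix-loop-helix factors.
Tnni1: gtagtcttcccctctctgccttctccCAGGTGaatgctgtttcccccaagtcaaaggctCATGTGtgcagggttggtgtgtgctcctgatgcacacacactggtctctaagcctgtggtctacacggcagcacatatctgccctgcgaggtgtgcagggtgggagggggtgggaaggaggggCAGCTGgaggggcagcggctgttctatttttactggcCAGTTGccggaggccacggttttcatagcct
Tnnt2: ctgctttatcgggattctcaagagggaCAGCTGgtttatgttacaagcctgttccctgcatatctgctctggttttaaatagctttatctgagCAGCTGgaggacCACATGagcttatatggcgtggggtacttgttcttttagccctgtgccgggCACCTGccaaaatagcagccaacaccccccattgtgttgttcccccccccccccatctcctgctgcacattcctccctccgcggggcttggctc
Cnn1: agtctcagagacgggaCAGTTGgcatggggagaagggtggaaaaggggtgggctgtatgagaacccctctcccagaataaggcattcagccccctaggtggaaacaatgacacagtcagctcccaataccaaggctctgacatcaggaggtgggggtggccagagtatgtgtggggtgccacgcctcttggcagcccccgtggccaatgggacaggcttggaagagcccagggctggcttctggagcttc

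The E-box, which reads the same on both strands, occurred 4 times in the printed Tnni1 window, 4 times in the printed Tnnt2 window and 1 time in the Cnn1 window. RefSeq gives Tnni1 and Tnnt2 a further start site each, whose windows are not printed and hold 2 and 1 E-boxes. It is common: 66.2% of all 32851 promoter windows of that length hold it. Of the members, 23 matched a RefSeq promoter by symbol, with 32 windows in all. An E-box was in 22 of these 32 windows, the measure to set beside that share. Counted by gene, 16 of the 23 held it in at least 1 of their windows. The CArG box, the site of serum response factor, was in none of the 32 windows of members and in 1.47% of all windows. The MEF2 box was likewise in none of the 32 and in 2.92% of all. Both strands were searched, and the absence of a match speaks only of these letters in these windows.

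Nrap, a nebulin-related protein that anchors actin filaments during myofibril assembly, gave 593, 379 and 523 reads in control libraries against 95, 55 and 60 under PFOA. It was 6.91-fold lower (-2.76 ± 0.35 on the log2 scale, SE, n = 3 each), without overlap of the groups. Its span (chromosome 19, 56320035 to 56390037) overlaps the antisense gene Gm17197, whose own row was also lower, and no strand setting of the counting is given. Neb, the giant protein along the thin filament, gave 112, 128 and 160 reads in control libraries against 49, 63 and 72 under PFOA, a 2.11-fold difference and the smallest of the sarcomere members.

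Myh2, the myosin heavy chain of fast oxidative muscle fibres, gave 36, 25 and 65 reads in control libraries against 1, 1 and 4 under PFOA. At these low counts it was 20.4-fold lower (-4.26 ± 0.61 on the log2 scale, SE, n = 3 each). Without PFOA replicate 3, which holds 4 of the 6 PFOA counts, the log2 fold change was -5.13. Myh2 (chromosome 11, 67171027 to 67197517) is part of a cluster of closely similar myosin genes. Myh1 begins at 67200052 and Myh4 at 67238029, and neither has a row, so reads shared between copies are uncertain.

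The 3 members grouped here by role as smooth muscle and Z disc, Cnn1, Synm and Flnc, were all lower. Control replicate 1 was the highest library in each. Cnn1 does not carry the Z disc term, and members of other groups do, among them Slc8a1, which was higher. Cnn1, the smooth muscle calponin, gave 12148, 5275 and 7665 reads in control libraries against 2758, 4210 and 4489 under PFOA, a 2.12-fold difference (-1.11 ± 0.34 on the log2 scale, SE, n = 3 each). Synm, the intermediate filament protein synemin, gave 7227, 3595 and 4181 reads in control libraries against 1380, 2463 and 2433 under PFOA, a 2.32-fold difference. In both, the lowest control library lay not far above the highest PFOA library. Flnc, the muscle filamin that crosslinks actin at the Z disc, gave 14646, 2726 and 3817 reads in control libraries against 1576, 1888 and 2062 under PFOA. The single library of control replicate 1 was 4.68 times the mean of the other 2 controls. The log2 fold change of Flnc was -1.92 ± 0.61 (SE, n = 3 each) and moved to -0.89 without control replicate 1. Among markers of smooth muscle cells, 1 of 8 has a row, Cnn1 itself, at 2641 to 6859 CPM in control and 1265 to 1978 in PFOA. Ano1, the row found for 1 of 3 markers of interstitial cells of Cajal, was at 10998 to 17312 CPM in control and 1050 to 2218 in PFOA, and its part in the muscle values was not tested.

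Among members for muscle energy, calcium handling and protein turnover, 4 were lower and 1 was higher. Eno3, the muscle form of the glycolytic enzyme enolase, gave 4352, 2815 and 3746 reads in control libraries against 322, 225 and 211 under PFOA. It was 14.0-fold lower (-3.78 ± 0.32 on the log2 scale, SE, n = 3 each), with the groups far apart. Per kilobase of row length, Eno3 stood at 1026 ± 294 CPM in control (SD, n = 3), the third highest level of the members, and at 63.3 ± 15.8 CPM in PFOA.

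Fbxo32, the muscle ubiquitin ligase subunit atrogin-1, gave 2639, 2302 and 2911 reads in control libraries against 915, 801 and 782 under PFOA. Its replicates were close together within each group, and it was 3.05-fold lower (-1.59 ± 0.21 on the log2 scale, SE, n = 3 each). Jph1, a junctophilin that ties the plasma membrane to the sarcoplasmic reticulum, gave 181, 104 and 127 reads in control libraries against 35, 55 and 55 under PFOA. Fkbp1b, which binds the ryanodine receptor, gave 45, 42 and 51 reads in control libraries against 12, 10 and 24 under PFOA. The differences of these 2 were 2.76-fold and 2.91-fold.

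Slc8a1, the sodium-calcium exchanger, went the other way, with 7143, 11049 and 11973 reads in control libraries against 23728, 34647 and 30398 under PFOA. It was 3.03-fold higher (1.60 ± 0.28 on the log2 scale, SE, n = 3 each). This row spans chromosome 17 from 81372900 to 81789450 and has a listed length of 170495 bases. The deposited class codes of its transcripts include those for fragments inside introns. The assembled locus MSTRG.10339, which lies inside the same span on the same strand, gave 2089, 3418 and 3758 reads in control libraries against 6801, 9758 and 8814 under PFOA. Slc8a1 held much of the members' counts in PFOA: without it, the members' share of listed counts was 3.21% to 5.40% in control and 1.03% to 1.31% in PFOA.

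**Figure D2:**
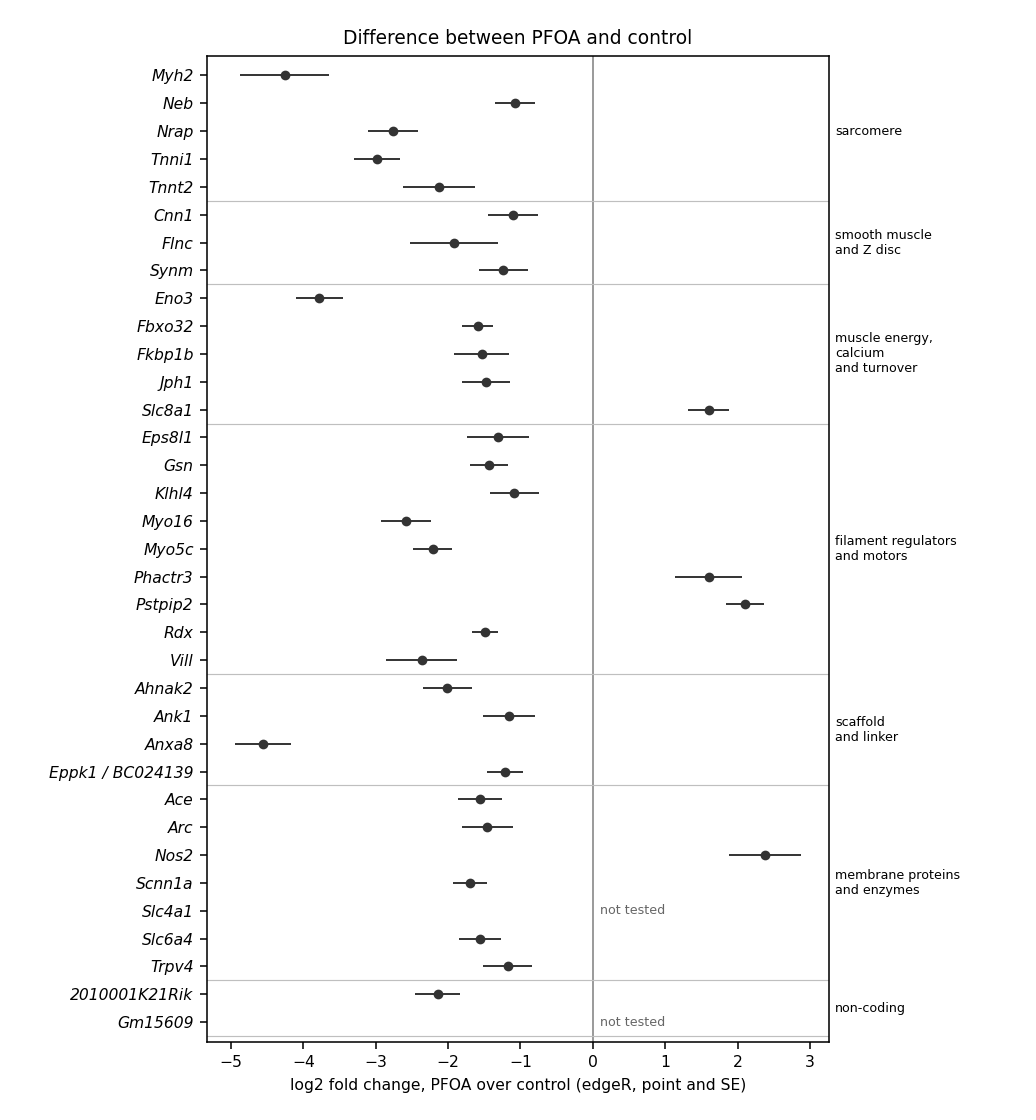
Fitted log2 fold change of PFOA over control for the 33 tested members, with points for the estimate and bars for its SE, grouped by role. Anxa8 (-4.56), Myh2 (-4.26) and Eno3 (-3.78) lie farthest to the left, and Nos2 (2.38) and Pstpip2 (2.10) farthest to the right.

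Of the 9 filament regulators and motors, 7 were lower and 2 higher. Gsn, gelsolin, which severs and caps actin filaments, gave 14583, 12648 and 14863 reads in control libraries against 5421, 3822 and 5737 under PFOA. It was 2.73-fold lower (-1.44 ± 0.26 on the log2 scale, SE, n = 3 each) with no overlap. It had the highest level per kilobase of all members in both groups, at 2266 ± 309 CPM in control and 718 ± 131 CPM in PFOA (SD, n = 3). Cnn1 followed at 1211 ± 618 CPM per kilobase in control, a level within the spread of that of Eno3.

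Myo5c, a class V myosin that moves secretory vesicles in epithelial cells, gave 10826, 11868 and 14248 reads in control libraries against 1652, 3111 and 3046 under PFOA. It was 4.59-fold lower (-2.21 ± 0.27 on the log2 scale, SE, n = 3 each). Myo16, an unconventional myosin, gave 83, 62 and 99 reads in control libraries against 13, 15 and 11 under PFOA, a 6.07-fold difference. Rdx, radixin, which links actin to the plasma membrane, gave 1602, 1575 and 1802 reads in control libraries against 545, 584 and 583 under PFOA. Rdx varied least within the groups, with a coefficient of variation of 3.54% in control and 3.89% in PFOA after scaling, around a 2.82-fold difference.

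Vill, a villin-like protein, gave 22, 57 and 28 reads in control libraries against 5, 6 and 9 under PFOA, so that its control level rested largely on replicate 2, at 2.36 times the mean of the other 2. Eps8l1, of a family of actin capping proteins, gave 115, 91 and 90 reads in control libraries against 16, 53 and 49 under PFOA. The low PFOA value was that of replicate 1. Klhl4, a kelch-repeat protein, gave 66, 65 and 96 reads in control libraries against 40, 26 and 36 under PFOA (-1.09 ± 0.34 on the log2 scale, SE, n = 3 each). Without PFOA replicate 2 it lost its edgeR call (adjusted p = 0.06; log2 fold change -0.85).

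Pstpip2, an F-BAR protein known from macrophages, gave 47, 61 and 74 reads in control libraries against 224, 274 and 259 under PFOA. It was 4.29-fold higher (2.10 ± 0.26 on the log2 scale, SE, n = 3 each), and its PFOA libraries were close together. None of the 8 markers of myeloid cells had a row to set beside it. Phactr3, which binds actin monomers and protein phosphatase 1, gave 15, 16 and 8 reads in control libraries against 20, 40 and 58 under PFOA. The groups lay close together at these low counts (1.60 ± 0.47 on the log2 scale, SE, n = 3 each), and without control replicate 3 the edgeR call was lost (adjusted p = 0.0641; log2 fold change 1.20).

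All 4 scaffold and linker members were lower, and control replicate 1 was the highest library in each. Anxa8, an annexin that binds membranes and actin filaments, gave 2322, 1050 and 1421 reads in control libraries against 47, 74 and 79 under PFOA. It was 23.2-fold lower, the largest fold among the tested members (-4.56 ± 0.39 on the log2 scale, SE, n = 3 each). Its locus (chromosome 14, 34085981 to 34100571, plus strand) lies within A630023A22Rik on the opposite strand. That row, which is no member, went the opposite way, with 5, 2 and 2 reads in control libraries against 75, 98 and 108 under PFOA.

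Ahnak2, a giant scaffold protein, gave 618, 323 and 340 reads in control libraries against 89, 128 and 93 under PFOA, a 4.01-fold difference. The row that merges Eppk1, the keratin-binding epiplakin, with BC024139 gave 15185, 12257 and 14854 reads in control libraries against 4398, 7387 and 6035 under PFOA, a 2.30-fold difference. Its deposited annotation names dystonin, a related protein of the plakin family, and the actin and Z disc terms of this row come with that match. Rows for 2 of 13 markers of squamous epithelium were listed, summing to 1.86 to 2.82 CPM in control and 3.08 to 12.4 CPM in PFOA. They went in opposite directions at low counts: Krt13 gave 5, 3 and 3 reads in control libraries and none under PFOA, and Dsg3 gave 0, 2 and 1 against 27, 7 and 7.

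Ank1, the ankyrin of red blood cells that also has short muscle forms, gave 258, 119 and 165 reads in control libraries against 63, 103 and 71 under PFOA, a 2.22-fold difference. The counts do not tell its forms apart. Slc4a1, the band 3 anion exchanger that ankyrin holds in the red cell membrane, gave 1, 5 and 6 reads in control and none under PFOA. With the summed PFOA reads set to a floor of 3, it was at least 3.88-fold lower, a bound that covers counting error only. The rows of the red blood cell markers, 4 rows for 5 genes, were all lower and summed to 652 to 1538 CPM in control and 105 to 200.0 CPM in PFOA. Of the controls, their sum was highest in replicate 2 and lowest in replicate 1. Ank1 was lowest in replicate 2 and Slc4a1, at 1 read, in replicate 1. The part of blood in these values was not tested.

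The remaining protein-coding members are channels, transporters and enzymes, and the cytoskeleton-associated protein Arc. Scnn1a, the alpha subunit of the epithelial sodium channel, gave 2559, 3459 and 3752 reads in control libraries against 704, 1108 and 1129 under PFOA, a 3.22-fold difference. Ace, angiotensin-converting enzyme, gave 2597, 1316 and 1993 reads in control libraries against 724, 538 and 661 under PFOA, a 2.98-fold difference. Slc6a4, the serotonin transporter, gave 736, 444 and 548 reads in control libraries against 210, 194 and 161 under PFOA, a 2.97-fold difference. In all 3 the lowest control library was well above the highest PFOA library.

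Trpv4, a calcium-permeable channel, and Arc, a neuronal immediate early gene, were lower at under 100 counts in any library, by 2.26-fold and 2.75-fold. Nos2, the inducible nitric oxide synthase of inflamed epithelium and macrophages, was higher, with 166, 58 and 107 reads in control libraries against 801, 472 and 361 under PFOA. It was 5.09-fold higher (2.38 ± 0.49 on the log2 scale, SE, n = 3 each). The first replicate was the highest library in both groups, at 2.11 times the mean of the other 2 in control and 2.20 times in PFOA.

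The 2 non-coding rows owe their terms to sequence matches. The lncRNA 2010001K21Rik is annotated with coronin-1C and gave 217, 202 and 272 reads in control libraries against 32, 53 and 68 under PFOA, a 4.38-fold difference. Gm15609 lies on the strand opposite to Shank3 (chromosome 15, 89520096 to 89523677) and is annotated with that gene's protein. It gave no read in control and 3, 1 and 5 under PFOA. With the summed control reads set to a floor of 3, this was at least 3.09-fold higher.

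**Figure D3:**
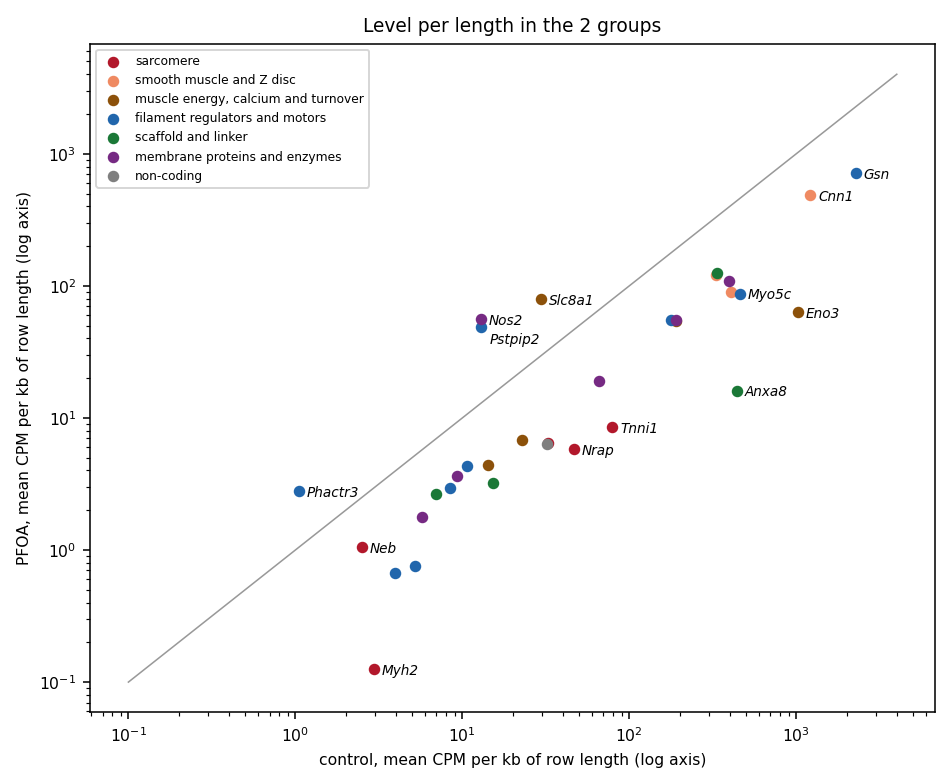
Mean level per kilobase of row length in PFOA (vertical, log axis) against control (horizontal, log axis) for the 33 members with counts in both groups, coloured by role. The grey line marks equal levels. Slc8a1, Nos2, Pstpip2 and Phactr3 lie above it and the other points below, from Gsn at 2266 to Neb at 2.52 CPM per kilobase in control. The distance to the line is largest for Anxa8, Myh2 and Eno3.

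The libraries of a group also differed among themselves. How the rows of the table were chosen is not given, and a choice by difference between the groups depends on this spread, so the values are a description. Over the 33 members with a mean of at least 1 CPM, control replicate 1 was the highest control library in 17 and control replicate 2 the lowest in 22. These are 51.5% and 66.7% of the members, against 40.9% and 31.6% of all 1943 rows with that mean. Among rows lower in PFOA they were 55.2% and 72.4% of 29 members, against 47.6% and 42.4% of 965 rows. In 12 of the 33 members (36.4%), control replicate 1 was at least 1.5 times the mean of the other 2 controls, against 17.5% of all 1943 rows with that mean. Among rows lower in PFOA the shares were 37.9% of 29 members and 20.5% of 965 rows. These 12 were Tnnt2, Cnn1, Flnc, Synm, Jph1, Ahnak2, Ank1, Anxa8, Ace, Arc, Nos2 and Slc6a4. Members of 1 library are not independent of each other, and no test was made of these shares.

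The muscle members did not rank the PFOA libraries alike. Eno3, Nrap and Tnni1 were highest in PFOA replicate 1, at 1.69, 1.89 and 1.77 times the mean of the other 2 PFOA libraries. Fbxo32 was also highest there, at 1.32 times. Tnnt2, Cnn1 and Synm were lowest in that library, at 0.43, 0.73 and 0.65 times, as were Neb, Flnc, Jph1 and Slc8a1, at 0.83, 0.91, 0.73 and 0.83 times. Myh2 and Fkbp1b, at low counts, were lowest in replicate 2 and highest in replicate 3. Tnni1 and Tnnt2 thus differed between groups in the same direction and within the PFOA group in opposite directions. The filament regulator Rdx and the F-BAR protein Pstpip2 hardly differed between PFOA libraries, at 1.07 and 0.96 times in replicate 1. These sets of genes were formed after their values were seen.

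**Figure D4:**
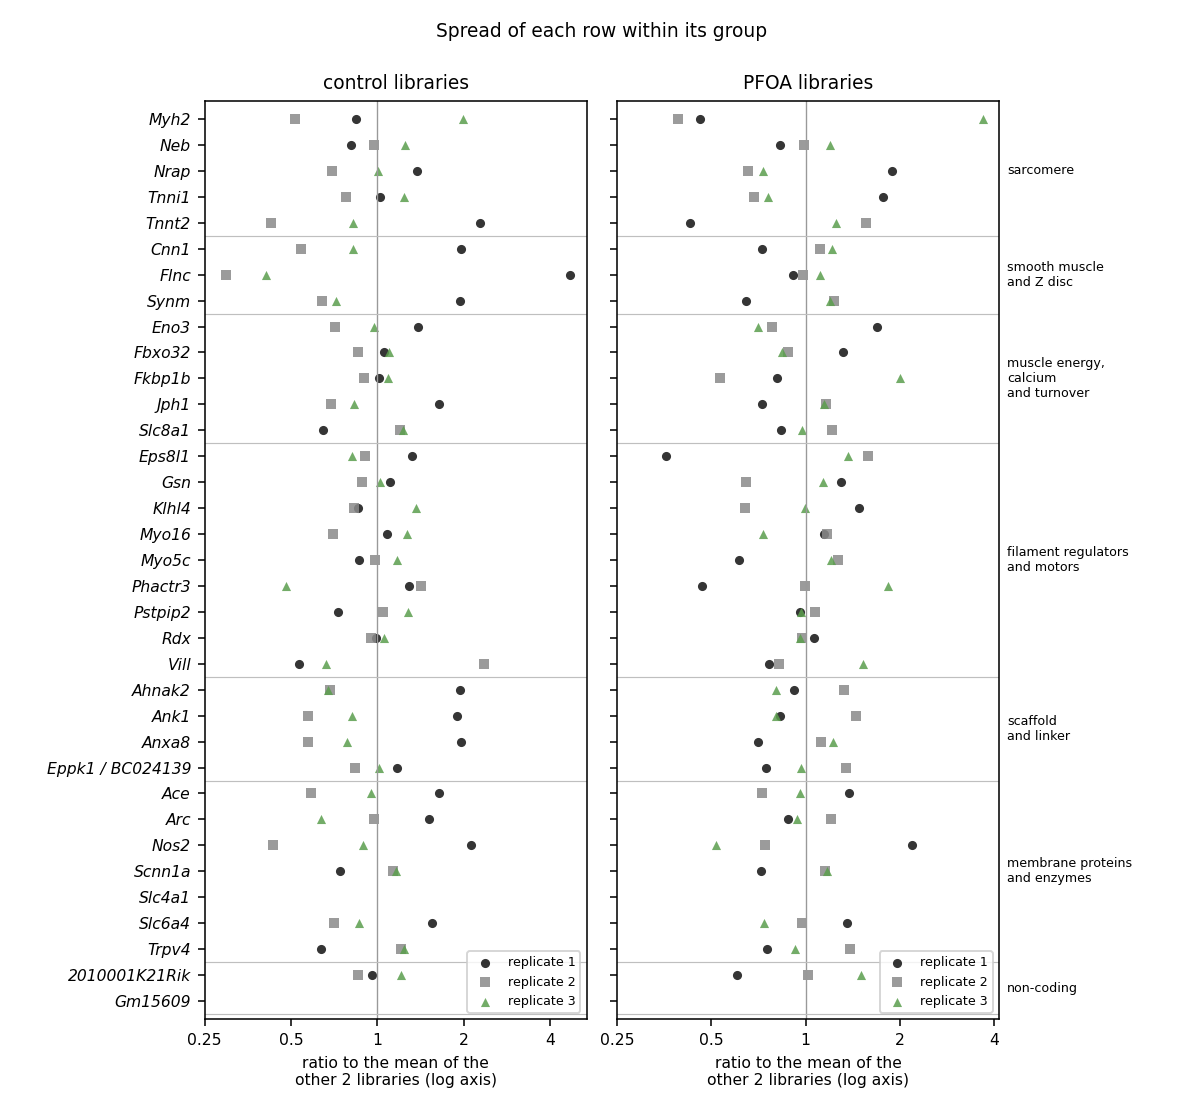
Ratio of each library to the mean of the other 2 libraries of its group (log axis) for the 33 tested members, with control on the left and PFOA on the right. In control, replicate 1 (black circles) lies to the right for the smooth muscle and scaffold rows, with Flnc at 4.68. In PFOA, replicate 1 lies to the right for Nrap, Tnni1, Eno3 and Nos2 and to the left for Tnnt2 and Eps8l1.

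Lists of actin and muscle genes by role, chosen by name, show how much of this biology the table holds. Of 51 genes of the striated sarcomere, 6 had a row, 5 lower and 1 higher in PFOA (all 6 tested, median log2 fold change -2.47). The 2 that are not members are Smpx, a small muscle protein with 91, 72 and 83 reads in control libraries against 8, 21 and 24 under PFOA, and Myom2, an M-band protein with 8, 10 and 9 reads in control libraries against 16, 31 and 28 under PFOA. Of 22 genes of muscle energy and calcium, 5 had a row, 3 lower and 2 higher. Cox6a2, the muscle form of a cytochrome oxidase subunit, gave 11, 7 and 15 reads in control libraries against none under PFOA, or at least 10.7-fold less on the same floor. Hrc, a calcium-binding protein of the sarcoplasmic reticulum, was higher, at 27, 19 and 15 reads in control libraries against 69, 83 and 144 under PFOA. Car3, the carbonic anhydrase of muscle and fat, gave 59, 22 and 8 reads in control libraries against 417, 7 and 1099 under PFOA, with overlapping groups. The 3 listed rows of 6 fat cell markers were high in the same PFOA libraries, with sums of 156, 1.40 and 352 CPM against 1.39 to 20.9 CPM in control, and their part in Car3 was not tested.

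Of 25 smooth muscle genes, 3 had a row and all were lower: Cnn1, Flnc and Synm. Of 20 unconventional myosins, 3 had a row, with Myo5c and Myo16 lower. Myo3a, the other one, gave 169, 179 and 172 reads in control libraries against 174, 723 and 699 under PFOA, so that PFOA replicate 1 lay among the controls. Of 26 brush border genes 4 had a row, 3 lower and 1 higher, the latter Tmigd1, an adhesion protein of the gut epithelium, at 14.6-fold. Of 52 membrane and junction linkers 4 had a row, 2 in each direction. Of 48 severing, capping and monomer-binding genes 2 had a row, Gsn and Pfn4. The lists of 12 non-muscle myosin genes, 44 nucleation genes and 43 crosslinking genes had no row. The rule reads the deposited annotation, and 1071 of the 2033 rows carry no ontology term, so that rows such as Smpx and Myom2 are outside it.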

How the data were processed

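RNA of mouse colon was sequenced in 6 libraries (3 control, 3 PFOA). Per the labels' protocols, a SMARTER mRNA-Seq kit was used. HISAT2, HTSeq and mm10 are named, without versions, in the submitters' processing notes. The authors deposited raw read counts per gene row with a row length and functional annotation. Not given in the sources used here are strand use, the handling of multi-mapping reads and how the rows were chosen. Members, role groups and gene lists were chosen with earlier results of these data known. All 2033 rows entered edgeR 4.0.16 in R 4.3.3: filterByExpr kept 1608, scaled by TMM, and the 2 groups were compared by glmQLFTest after glmQLFit (two-sided, no covariate), adjusted by Benjamini-Hochberg over the tested rows. The fit was also run on simulated counts in which most rows did not change. In the real table all tested rows were called, so that run does not show how the fit behaves here. SEs of log2 fold changes were derived from the F statistic. Plain folds are ratios of group sums scaled by TMM-adjusted totals. Every sarcomere-type member is named. Of each other role list, and of members on none, the rule names the 4 most abundant and the 4 with the largest change. Further members, and Smpx, Myom2, Cox6a2, Hrc, Car3, Myo3a, Tmigd1, Ano1 and A630023A22Rik, were named after their values were seen. Replicates of a group were compared for duplicates, and none agreed within sampling noise (smallest chi-square per degree of freedom 22.4). Alternatives were DESeq2 1.42.0, limma-voom (limma 3.58.1), other scalings and filters, other member rules, the replicate number as a block and each library left out. Promoters are from RefSeq and overlaps of genes from GENCODE M21, both of the mm10 assembly.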

Additional observations from a re-analysis of the deposited data

How the results depend on the processing

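Every tested member kept its direction under all alternatives. In the main fit 100% of the 1608 tested rows were called, so unchanged calls do not set the members apart from other rows. The counts of members lower and higher given below are of members called in each fit. Shares over all rows under the alternatives are not given. The counts of 29 members lower and 4 higher were unchanged with DESeq2, limma-voom, library totals, upper quartile scaling, DESeq2 size factors in edgeR, a filter of 1 CPM in 3 libraries and scaling without the 20 most abundant rows. They were 30 and 5 without a filter, and with the rows of the neuronal cell body kept. With the 3 ontology terms alone they were 25 and 4, and without the merged row 28 and 4. Only the demand of an absolute log2 fold change of at least 2 lowered them past 1.5 times, to 11 lower and 2 higher. With each library left out in turn, 28 to 29 members were lower and 3 to 4 higher. Phactr3 and Klhl4 lost their edgeR call in 1 such fit each, and Flnc and Myh2 moved by over 1.5 times, as given with their values. Library totals in place of TMM shifted the log2 fold changes of all rows by a median of -0.20. TMM takes most rows to be unchanged, whereas all tested rows here were called. The scale of the folds, and with it the split into lower and higher rows, is therefore uncertain. The replicate numbers did not pair the libraries: deviations from the group means correlated at 0.114, -0.031 and 0.102 for numbers 1, 2 and 3. In the fit with this replicate block, 29 members were lower and 4 higher. Low counts limit Myh2, Phactr3, Slc4a1 and Gm15609 most. Vill, Fkbp1b, Arc and Myo16, among others, also had few reads in the PFOA libraries.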

Other observations

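The rows left out for their neuronal cell body annotation went in opposite directions. Lrrk2, a kinase with an actin binding term, gave 1954, 1565 and 1748 reads in control libraries against 707, 648 and 672 under PFOA. Tnn, which encodes the matrix protein tenascin N and matched the troponin prefix by its symbol only, gave 33, 10 and 21 reads in control libraries against 42, 100 and 82 under PFOA.

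Several members lie close to other listed rows. Within 100 kb of Slc6a4 lies Tmigd1, which went the other way, and within 100 kb of Vill lies Acaa1b, a peroxisomal thiolase with 45, 32 and 15 reads in control libraries against 1112, 474 and 509 under PFOA. Kcnh6, a potassium channel gene 18.2 kb from Ace, was lower like Ace, with 589, 301 and 466 reads in control libraries against 145, 255 and 207 under PFOA.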
